A study of Saccharomyces cerevisiae with 72 samples.

Results

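The comparison is between *kar4*Δ/Δ and wild type diploids of *Saccharomyces cerevisiae* in which both *IME1* and *RIM4* could be overexpressed, at 6 h and at 8 h after transfer to sporulation medium. These strains and times were chosen from the design of the time course and not from any measured value. The gene lists and the comparisons made within them were chosen with earlier results of these data known. The 4 conditions (2 genotypes at 2 times) rest on 8 of the 72 RNA-seq libraries of the series, 2 biological replicates each. Both genotypes are S288c and carry 1 copy of Pzev-*IME1* and 1 copy of Pzev-*RIM4*, in which the estradiol-responsive Pzev promoter replaces the endogenous one, and β-estradiol was added to induce them. In the study's strain list, the wild type strain with both promoters and an untagged *kar4*Δ/Δ strain with both promoters have a homozygous act1pr-Z3EV construct at *leu2*, which makes the activator of Pzev, and a homozygous *ura3*, and that mutant is *kar4*::*LEU2*/*kar4*::*URA3*. Epitope-tagged strains with both promoters in the list carry other *kar4* alleles or a heterozygous construct. Which strains were sequenced is not given there. *LEU2* and *URA3*, which differ between that pair together with *KAR4*, are not analysed here. The *kar4*Δ/Δ strain is called the mutant from here on.

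Kar4p is the yeast counterpart of METTL14 and a member of the complex that methylates mRNA in meiosis, and in mating it is a transcription factor for nuclear fusion. Ime1p turns on the early meiotic genes by acting on the DNA-bound protein Ume6p, the RNA-binding protein Rim4p regulates translation, and the kinase Ime2p drives premeiotic replication and the step into the divisions. Ndt80p then activates the middle genes, whose products carry out the meiotic divisions, build the prospore membrane around each nucleus and lay down the spore wall.

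The values are the authors' log2 fold changes of a gene in a condition, taken against the 0 h wild type whose promoters are all endogenous, with both replicates already combined. They are called the level of a gene here, and the difference is the mutant level minus the wild type level at the same time, in which the reference cancels if fold changes are additive. A gene is called lower or higher in the mutant where the difference is at least 2-fold, which is 1 on the log2 scale. The deposited table holds no replicate value, error, count or depth, so no difference has a replicate check here and no test was made. *KAR4* (YCL055W, chromosome III, 27929 to 28936 in R64, the assembly also called sacCer3) checks the labels. Its level was 0.91 in wild type and -7.47 in the mutant at 6 h, and 0.79 and -7.89 at 8 h. The levels of the wild type columns spread more widely over genes (SD over genes 1.62 at 6 h and 1.90 at 8 h) than those of the mutant (1.08 and 1.18). Quantile normalization, which gives every column the same spread, therefore moves many values. Its result is given with each list median printed here that changes sign under it. The 2 genotypes also differed at 0 h: *IME2* stood at 4.36 in the wild type column labelled 0 h and at -0.04 in that of the mutant, and *RIM4* at 3.21 and 0.23.

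Of the 6496 genes used, the mutant was lower in 718 (11.1%) and higher in 695 (10.7%) at 6 h. The counts at 8 h were 1146 lower (17.6%) and 832 higher (12.8%). List counts given below are to be read against these shares. In all, 552 genes (8.5%) were lower at both times and 490 (7.54%) were higher at both times. The 552 genes are 76.9% of those lower at 6 h and 48.2% of those lower at 8 h, and the 490 genes are 70.5% and 58.9% of those higher. The largest differences were on the low side. At least 16-fold lower were 72 genes at 6 h and 129 at 8 h, against 5 and 8 genes that were at least 16-fold higher. On quantile normalized columns the counts were 316 lower and 302 higher at 6 h, and 422 and 304 at 8 h. The plot of both differences shows where the main gene groups lie.

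**Figure D1:**
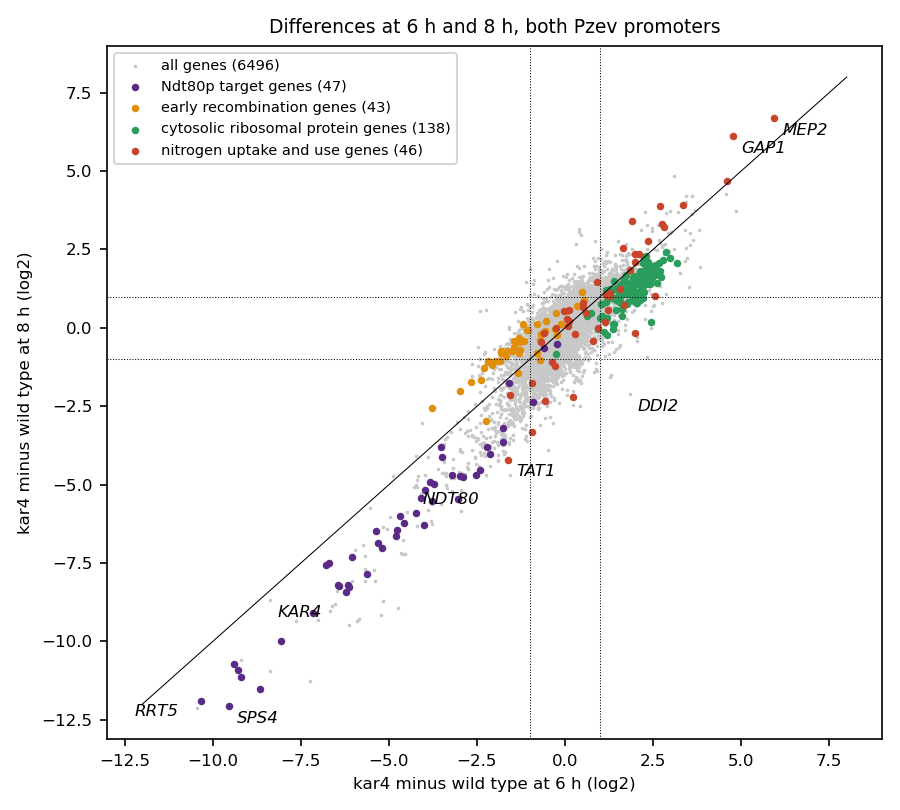
Each point is 1 gene, with the difference *kar4*Δ/Δ minus wild type at 6 h on the x axis and at 8 h on the y axis (log2), dotted lines at 2-fold and a solid line of equal differences. The 47 Ndt80p targets reach -10.33 at 6 h and -12.06 at 8 h and lie under the solid line, while 102 of the 138 cytosolic ribosomal protein genes are past the 2-fold lines on the high side at both times.

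*NDT80* (YHR124W, chromosome VIII, 356561 to 358444), the transcription factor of the middle genes, was high in wild type and near its starting level in the mutant. Its level was 4.18 in wild type and -0.10 in the mutant at 6 h, and 5.41 and 0.34 at 8 h. The differences of -4.28 and -5.08 are 19.4-fold and 33.8-fold. They were -2.22 and -1.98 after quantile normalization. *SUM1*, which encodes a repressor of the middle genes, differed by 0.47 and 0.33. Its partners *RFM1* (-0.71 and -1.28) and the deacetylase gene *HST1* (-1.18 and -1.74) stood below wild type in the columns as deposited.

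The promoters that follow are shown because *NDT80* is the regulator of the middle genes and *RRT5* and *SPS4* had the most negative differences at 8 h. They are the 300 bases before the start codon, read 5′ to 3′ from the R64 assembly of RefSeq, with matches to the Ndt80p core (GNCACAAA or GNCGCAAA on either strand) in capitals. *NDT80* (chrVIII:356261-356560, plus strand) has 2 matches, which begin 221 and 85 bases before the start codon. *SPS4* (chrXV:902875-903174, minus strand) has 1 match at 192 bases, and *RRT5* (chrVI:222960-223259, minus strand) has 2 at 132 and 116 bases.
NDT80: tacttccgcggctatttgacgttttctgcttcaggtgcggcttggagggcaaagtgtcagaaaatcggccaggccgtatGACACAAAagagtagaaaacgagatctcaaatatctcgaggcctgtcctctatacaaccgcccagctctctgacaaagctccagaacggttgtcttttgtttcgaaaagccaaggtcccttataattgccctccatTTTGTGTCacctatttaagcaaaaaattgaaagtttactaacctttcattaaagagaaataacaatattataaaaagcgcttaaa
SPS4: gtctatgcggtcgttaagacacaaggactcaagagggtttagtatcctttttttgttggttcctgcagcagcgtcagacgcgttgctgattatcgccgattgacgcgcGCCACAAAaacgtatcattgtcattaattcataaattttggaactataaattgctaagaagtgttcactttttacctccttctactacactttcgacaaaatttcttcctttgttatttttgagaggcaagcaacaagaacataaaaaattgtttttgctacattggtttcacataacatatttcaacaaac
RRT5: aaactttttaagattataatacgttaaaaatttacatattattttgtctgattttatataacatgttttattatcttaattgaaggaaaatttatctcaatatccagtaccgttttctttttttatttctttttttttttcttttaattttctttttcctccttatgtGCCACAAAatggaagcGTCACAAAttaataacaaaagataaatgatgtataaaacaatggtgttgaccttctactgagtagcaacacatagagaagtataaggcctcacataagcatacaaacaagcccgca

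A match to the Ndt80p core stood in the same 300 bases of 6.84% of the 5880 protein-coding genes with a window. Of 488 genes lower at both times with a window, 25.4% held one, and of 444 genes higher at both times, 3.15%. Among 47 listed Ndt80p targets the share was 57.4%. A match is a description of letters, and windows can overlap a neighbouring gene.

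The Ndt80p targets stood far lower in the mutant. Of 47 listed targets, 44 were lower at 6 h and 45 at 8 h, and none was higher. The median level of the targets was 5.04 in wild type and 0.19 in the mutant at 6 h, and 6.85 and 0.35 at 8 h. The median difference was -4.58 at 6 h and -6.23 at 8 h, against a median of 0.00 and 0.08 over all genes. The difference was more negative at 8 h than at 6 h in 47 of the 47 targets. After quantile normalization the medians were -2.24 and -2.32, and 42 targets were lower at each time. The exceptions were *MPC54*, a subunit of the meiotic spindle pole plaque (-0.22 and -0.51), and *RRT8*, an outer spore wall gene (-0.58 and -0.64), which did not reach 2-fold at either time. The B-type cyclin gene *CLB3* was at -0.91 at 6 h and at -2.36 at 8 h.

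The lowest named gene at both times was *RRT5*, a gene of unknown function. Its level was 11.25 in wild type and 0.81 in the mutant at 6 h, and 13.50 and 1.39 at 8 h, differences of -10.44 and -12.11. The sporulation gene *SPS4* stood at 8.02 and -1.53 at 6 h and at 11.14 and -0.92 at 8 h, differences of -9.55 and -12.06. *LDS1*, which acts at the outer spore wall, was at 11.58 in wild type and 1.25 in the mutant at 6 h, and at 13.40 and 1.49 at 8 h. In each of these genes the mutant stayed within 2 log2 units of the reference while wild type was above 8. The table gives no counts, so the number of reads behind the low mutant levels is unknown.

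**Figure D2:**
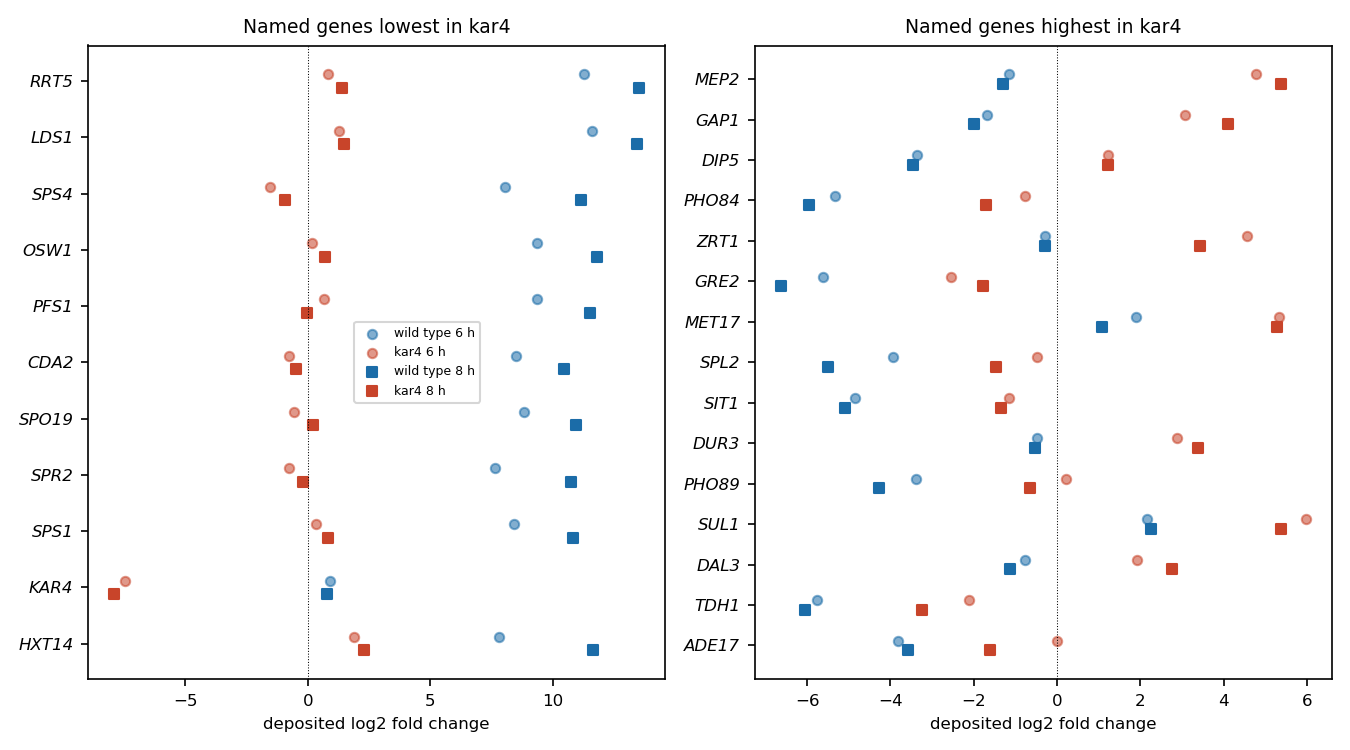
The x axis is the deposited log2 fold change and each height is 1 named gene among the 10 lowest or 10 highest differences at 6 h or 8 h, with circles for 6 h, squares for 8 h, blue for wild type and red for *kar4*Δ/Δ. In the left panel wild type lies between 7.62 and 13.50 in every gene except *KAR4*, and in the right panel *MEP2* is at 4.78 and 5.38 in the mutant and below 0 in wild type.

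Genes of the spore wall were lower throughout the list of its inner layers. All 10 genes for the glucan layers and the Smk1p pathway were lower at both times, with medians of -5.41 and -6.96 (-2.77 and -2.76 after quantile normalization). *SPO19*, a gene for a prospore protein, was at 8.83 in wild type and -0.58 in the mutant at 6 h, and at 10.91 and 0.21 at 8 h. *SPS2*, needed for spore wall organization, was at 8.15 and 1.00 at 6 h, and at 10.36 and 1.28 at 8 h. Its relative *SPS22* differed by -6.23 and -8.44, and *SSP2*, which activates Smk1p, by -6.12 and -8.25. *SMK1* itself, a meiosis-specific MAP kinase gene, showed a smaller gap of -2.54 and -4.71.

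The outer wall, made of chitosan and dityrosine, included both very large and small differences. Of 15 genes, 11 were lower at 6 h and 14 at 8 h, with medians of -4.19 and -6.33 (-1.86 and -2.32 after quantile normalization). *CDA2*, a chitin deacetylase gene, was at 8.49 in wild type and -0.78 in the mutant at 6 h, and at 10.43 and -0.47 at 8 h. *OSW1*, a gene of outer wall integrity, differed by -9.20 and -11.12, and *LDS2*, related to *LDS1*, by -6.69 and -7.50. *DTR1*, the dityrosine transporter gene, differed by -6.04 and -8.08. The dityrosine synthesis genes were at lower levels in wild type. At 6 h *DIT2* was at 2.09 in wild type and -0.03 in the mutant, and *DIT1* at 0.71 and -0.02. *DIT1* differed by -0.73 and -1.38 and *DIT2* by -2.12 and -3.82.

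Genes of the prospore membrane followed the same direction. Of 22 genes, 20 were lower at both times and none was higher, with medians of -2.94 and -4.61 (-1.45 and -1.69 after quantile normalization). *PFS1*, needed for prospore membranes at selected spindle poles, was at 9.33 and 0.68 at 6 h and at 11.50 and -0.02 at 8 h. The kinase gene *SPS1* was at 8.39 and 0.34 at 6 h and at 10.82 and 0.82 at 8 h. *SPO77* (-6.42 and -8.22) and the spindle pole gene *SPO74* (-6.45 and -8.19) came next. The 2 that were not lower were *MPC54* and *NUD1*, a scaffold of the spindle pole (-0.31 and -0.37).

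Of 7 septin genes, 4 were lower at 6 h and 5 at 8 h (medians -1.75 and -3.37, or -0.55 and -0.78 after quantile normalization, with 3 lower at each time). The sporulation septin *SPR3* was at 5.60 in wild type and -0.56 in the mutant at 6 h and at 7.61 and -0.59 at 8 h, and *SPR28* was at 5.44 and -1.33 and at 7.17 and -0.40. *CDC10* (-2.29 and -3.67) and *CDC3* (-1.75 and -3.37), septins of both life phases, were lower as well. *CDC12* (-0.18 and 0.20) and *CDC11* (-0.81 and -0.67), which are also septins of both phases, were within 2-fold at both times, and *SHS1* was at -0.41 and -1.03. In a further list of 19 middle and late sporulation genes, 12 were lower at 6 h and 13 at 8 h (medians -3.78 and -5.51). They included *SPR2* (-8.37 and -10.95) and the glucoamylase gene *SGA1* (-4.67 and -7.17), with *FMP45* higher at both times (1.76 and 1.10). *SPS100*, a marker of the late spore wall, lay between -5.89 and -4.89 in all 4 conditions.

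Genes of the meiotic divisions were lower in part. Of 23, 17 were lower at 6 h and 18 at 8 h, with medians of -1.73 and -2.78 (-0.77 and -0.62 after quantile normalization, with 8 lower at each time). *MAM1*, the monopolin subunit that joins sister kinetochores to 1 pole, was at 6.27 in wild type and 0.75 in the mutant at 6 h and at 7.29 and 1.53 at 8 h. *CLB1*, the main B-type cyclin gene of the divisions, was at 2.16 and -2.53 at 6 h and at 4.09 and -1.92 at 8 h. The polo kinase gene *CDC5* differed by -4.09 and -5.42, and *CLB4* by -3.98 and -5.17. *AMA1*, a meiotic activator of the anaphase-promoting complex, was high in both genotypes, at 6.51 and 4.45 at 6 h and at 8.28 and 5.07 at 8 h, differences of -2.07 and -3.21 that were 0.29 and 0.33 after quantile normalization. Of 14 outer kinetochore genes, 6 were lower at 6 h and 7 at 8 h (medians -0.87 and -0.98), and after quantile normalization 2 and 1 were lower (medians -0.43 and -0.25). *NDC80*, which has a long meiotic transcript that a count per gene does not separate, was at 3.10 in wild type and 1.46 in the mutant at 6 h and at 3.34 and 1.88 at 8 h, and *DAD3* differed by -1.65 and -2.40.

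**Figure D3:**
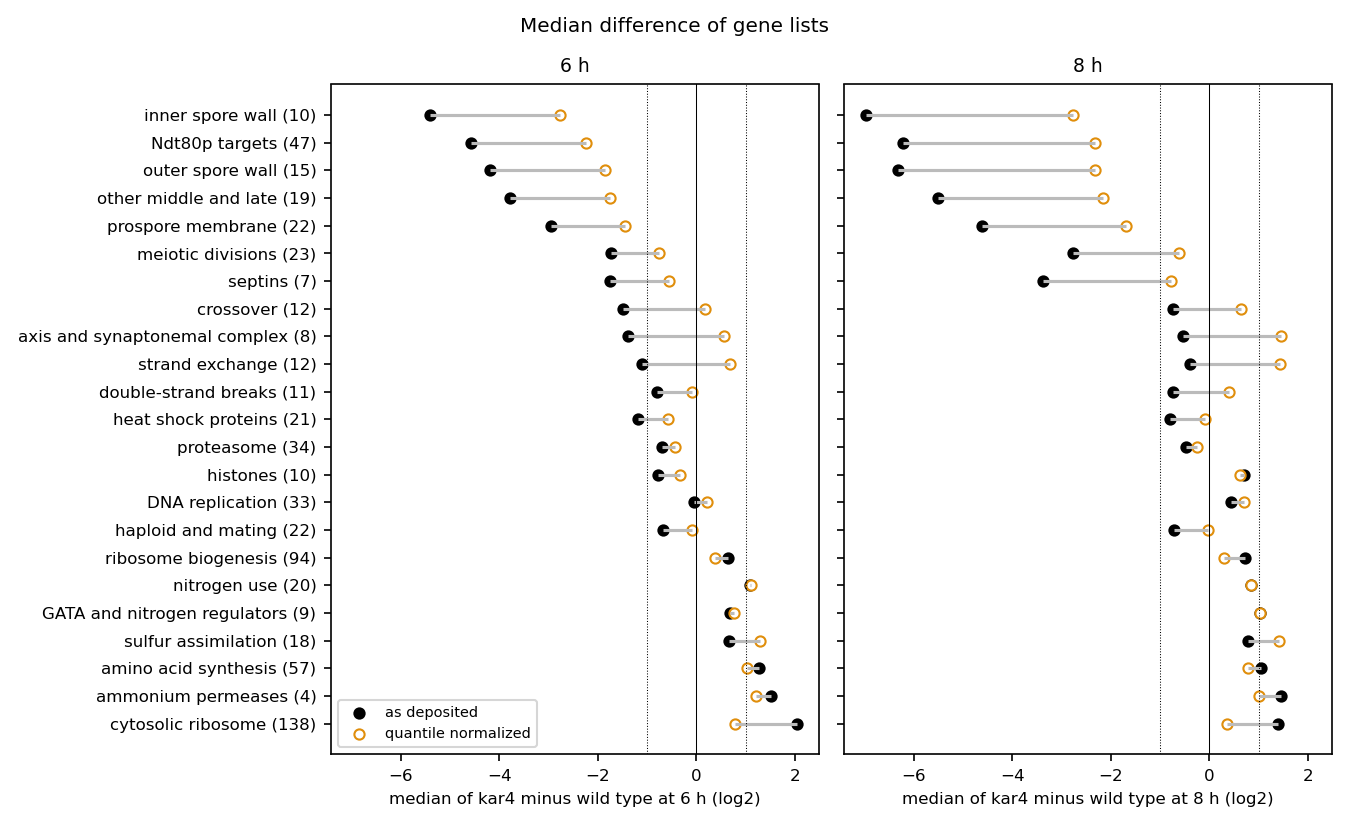
The x axis is the median over a list of the difference *kar4*Δ/Δ minus wild type (log2) at 6 h (left) and 8 h (right), with the number of genes in brackets, filled points for the columns as deposited and open points after quantile normalization. The 5 lists of Ndt80p targets, spore wall, prospore membrane and other middle and late genes stay below -1 on both scales, and the 4 recombination lists lie near or on the other side of 0 on the second scale.

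Early recombination genes were expressed in both genotypes at both times, and their differences depended on the scaling. Of 8 genes of the chromosome axis and synaptonemal complex, 7 were lower at 6 h and 2 at 8 h, with medians of -1.39 and -0.53, but the medians were 0.56 and 1.44 after quantile normalization. The median level of these 8 genes was 5.79 in wild type and 4.57 in the mutant at 6 h, and 5.33 and 5.28 at 8 h. *GMC2*, a synaptonemal complex gene, was at 8.51 and 4.72 at 6 h and at 8.19 and 5.63 at 8 h, differences of -3.79 and -2.56 (-0.72 and 0.78 after quantile normalization). Its partner *ECM11* was at 8.15 and 5.48 at 6 h and at 7.93 and 6.21 at 8 h. *ZIP1*, the transverse filament gene, differed by -1.68 and -0.90, and *RED1*, an axis gene, by -1.46 and -0.62. The meiotic kinase gene *MEK1* (-1.20 and 0.13) and the axis gene *HOP1* (-0.80 and 0.13) were within 2-fold by 8 h. In each of the 8 genes the difference was less negative or more positive at 8 h, which is the opposite order to the Ndt80p targets.

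The promoter of *HOP1* (chrIX:226302-226601, plus strand) is printed as an example of an early promoter, with its 1 match to the Ume6p core (GCCGCC, or GGCGGC on the other strand) in capitals at 171 bases before the start codon. Of the 8 axis genes 62.5% held such a match in their 300 bases, against 5.29% of all windows. It stood in 9.22% of windows of genes lower at both times and in 4.05% of those of genes higher at both times. The share was smaller in the other early lists, 41.7% of 12 strand exchange, 27.3% of 11 double-strand break and 25% of 12 crossover genes. The match overlapped one to the Ndt80p core in 3 windows of all genes.
HOP1: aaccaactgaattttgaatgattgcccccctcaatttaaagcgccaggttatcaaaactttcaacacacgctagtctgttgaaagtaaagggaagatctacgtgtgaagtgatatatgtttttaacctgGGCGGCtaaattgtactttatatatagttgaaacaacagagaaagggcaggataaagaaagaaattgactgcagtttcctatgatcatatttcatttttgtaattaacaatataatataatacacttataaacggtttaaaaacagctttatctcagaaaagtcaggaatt

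Strand exchange genes behaved alike. Of 12, 7 were lower at 6 h and 3 at 8 h, with medians of -1.11 and -0.39, which became 0.68 and 1.42 after quantile normalization. *MEI5*, which loads Dmc1p, was at 10.06 in wild type and 7.68 in the mutant at 6 h and at 10.01 and 8.35 at 8 h. Its partner *SAE3* was at 6.99 and 5.69 at 6 h and at 6.87 and 6.06 at 8 h. *HED1*, an inhibitor of Rad51p, differed by -1.85 and -1.06. The recombinase gene *DMC1* was at 5.69 and 4.43 at 6 h and at 5.16 and 4.79 at 8 h, and *RDH54*, a translocase gene, was higher at 8 h (0.49 and 1.14). *MEI5*, *SAE3*, *HED1* and *DMC1* were above 4 in the mutant at both times.

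Among 11 genes of double-strand break formation, 5 were lower at 6 h and 4 at 8 h (medians -0.80 and -0.75, or -0.08 and 0.39 after quantile normalization). *SPO11*, the nuclease gene that makes the breaks, was at 5.54 and 2.54 at 6 h and at 5.21 and 3.20 at 8 h. Its partners *REC102* (-2.20 and -1.10), *MEI4* (-2.18 and -1.06) and *REC104* (-1.98 and -1.04) had close values, and *REC114* was at -1.83 and -0.75. The subunits shared with mitotic repair did not reach 2-fold: *RAD50* was at -0.55 and -0.09 and *MRE11* at -0.28 and -0.03. Neither did *REC107*, another gene of break formation (-0.10 and 0.11). Of 12 crossover genes, 9 were lower at 6 h and 4 at 8 h, with medians of -1.48 and -0.74 (0.17 and 0.64 after quantile normalization). *MSH4*, of the MutS pair that stabilizes crossovers, was at 5.34 and 3.04 at 6 h and at 5.03 and 3.74 at 8 h. *EXO1*, the nuclease gene that acts with Mlh1p and Mlh3p (-2.24 and -2.96), and *MLH3* (-1.33 and -1.43) were lower at both times with the wider gap at 8 h. *CST9*, which encodes Zip3p, differed by -2.06 and -1.17.

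These early genes were already high in the wild type column labelled 0 h, and the table does not settle whether induction had begun in it or the label is wrong, so values relative to it share that doubt. The median of the 8 axis genes was 3.21 there and -0.35 in the mutant. Taken relative to its own 0 h column, the median difference of the axis genes was 2.10 at 6 h and 3.01 at 8 h, with the sign turned, and that of the Ndt80p targets was -3.82 and -5.62, with the sign kept.

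The overexpressed regulators lay within 2-fold of each other in the columns as deposited. *IME1* (YJR094C, chromosome X, 604569 to 605651) was at 3.54 in wild type and 4.00 in the mutant at 6 h and at 3.14 and 3.86 at 8 h. *RIM4* (YHL024W, chromosome VIII, 56649 to 58790) was at 4.42 and 4.37 at 6 h and at 4.19 and 4.31 at 8 h. The differences were 0.45 and 0.72 for *IME1* and -0.05 and 0.12 for *RIM4*, and after quantile normalization they were 1.30 and 1.60, and 1.26 and 1.50. *IME2* (YJL106W, chromosome X, 221390 to 223327) was at 6.79 and 5.36 at 6 h and at 7.21 and 5.71 at 8 h. It was thus lower by 2.69-fold and 2.82-fold in the columns as deposited (-1.43 and -1.50), but higher after quantile normalization (0.75 and 1.46). *RME1* (YGR044C, chromosome VII, 582990 to 583892), a repressor of *IME1*, was at -0.13 in wild type and 0.72 in the mutant at 6 h and at -0.28 and 0.99 at 8 h, so that it was within 2-fold at 6 h (0.85) and 2.40-fold higher at 8 h (1.27, or 0.95 after quantile normalization).

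**Figure D4:**
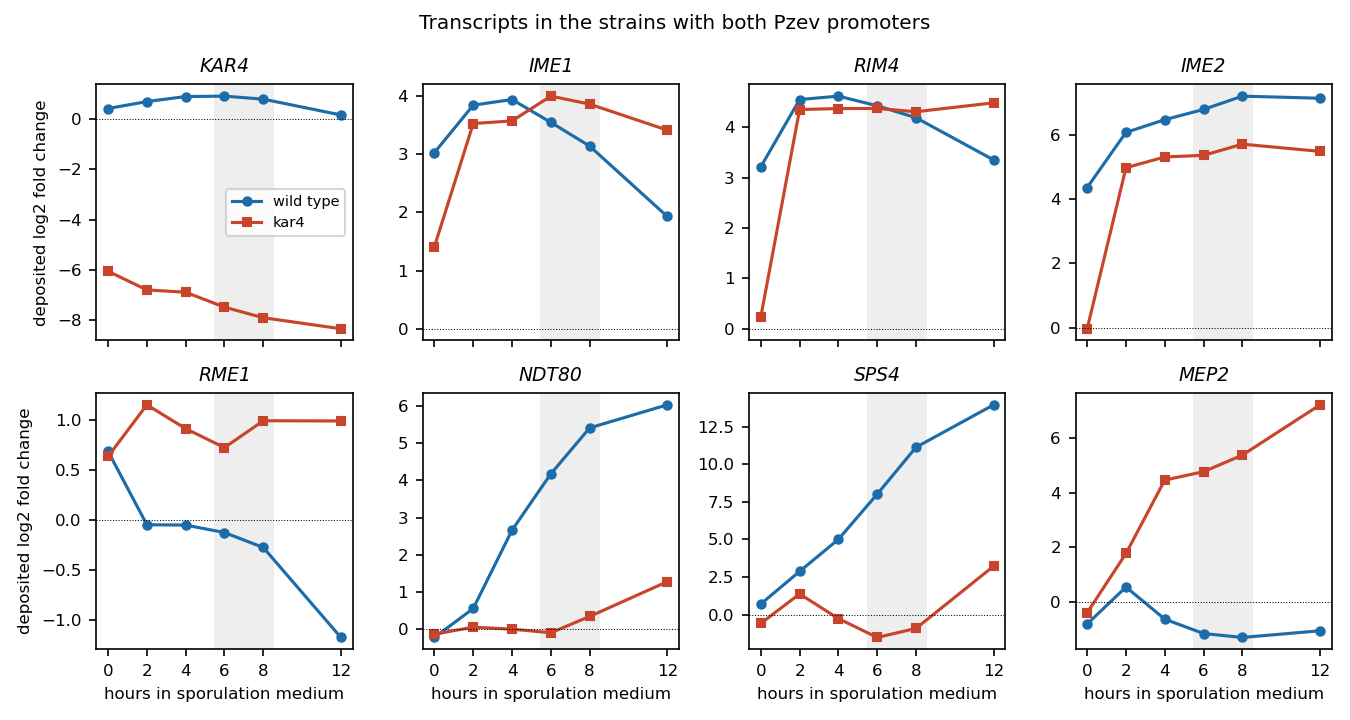
Deposited log2 fold change (y axis, each panel on its own scale) over hours in sporulation medium (x axis) in the strains with both Pzev promoters, wild type in blue circles and *kar4*Δ/Δ in red squares, with 6 h and 8 h shaded. *IME1* and *RIM4* lie close together at both shaded times, *NDT80* and *SPS4* are high there in wild type and not in the mutant, and *MEP2* is high there in the mutant and not in wild type.

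In the whole list of 13 entry regulators, these 4 included, 1 was lower (*IME2*) and 1 higher at 6 h (*SOK2*, a transcription factor gene, at 1.21 and then 0.15 at 8 h), while at 8 h the numbers were 3 and 1. Besides *IME2* and *RME1*, those at 8 h were *RIM15* and *IDS2*. *RIM15*, a nutrient-sensing kinase gene, differed by -0.84 and -1.26, and *IDS2*, a regulator of Ime2p, by -0.50 and -1.60. *UME6* was at 0.35 and 0.65. In the methyltransferase complex, the catalytic subunit gene *IME4* was at 1.89 in wild type and 1.42 in the mutant at 6 h and at 1.73 and 1.37 at 8 h, and *MUM2* at 1.84 and 1.11 and at 1.84 and 1.25. *SLZ1*, the meiosis-specific subunit, differed by -1.36 and -1.66 and the reader gene *PHO92* by -1.79 and -1.62, but these were 0.57 and 0.90, and 0.48 and 1.31, after quantile normalization. *VIR1* was at -0.66 and 0.19. The median of the 7 members was -0.74 and -0.59, and 0.19 and 0.29 after quantile normalization. Except for *KAR4*, every member of the list with a value differed by less than 2 on the log2 scale.

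The profile of the mutant was nearest to that of wild type at 2 h. Against wild type at 0, 2, 4, 6, 8 and 12 h, the mutant at 6 h was at least 2-fold apart in 1012, 720, 1058, 1413, 2242 and 3044 genes. At 8 h the mutant was apart from the same wild type times in 1167, 375, 659, 1041, 1978 and 2918 genes. The count was smallest against wild type at 2 h for both times, also after quantile normalization (357 and 215 genes). The median absolute difference was smallest there too (0.32 and 0.24). For the mutant at 8 h the quantile normalized count against wild type at 4 h was close, 237 genes. The doubt over the wild type column labelled 0 h holds here too. The times share the strain and the reference. From 6 h to 8 h, 635 genes were at least 2-fold up and 44 down in wild type, against 70 up and 70 down in the mutant. After quantile normalization these were 29 and 17 genes in wild type and 17 and 26 in the mutant.

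**Figure D5:**
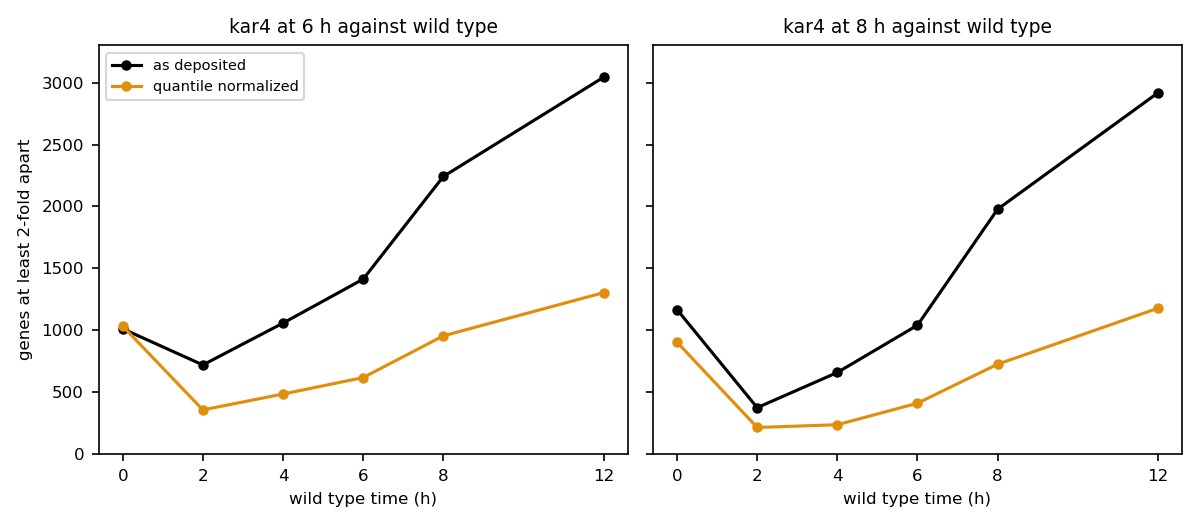
Number of genes at least 2-fold apart (y axis, of 6496) between the mutant at 6 h (left) or 8 h (right) and wild type at each time (x axis, hours), black as deposited and orange after quantile normalization. Both curves are lowest at wild type 2 h in each panel.

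Genes that take up nitrogen were among the leading genes on the high side, beside transporters of zinc and phosphate that are given further below. *MEP2* (YNL142W, chromosome XIV, 357453 to 358952), a high-affinity ammonium permease and sensor, was at -1.16 in wild type and 4.78 in the mutant at 6 h and at -1.30 and 5.38 at 8 h. The differences of 5.93 and 6.68 (61.0-fold and 103-fold) were 4.74 and 4.78 after quantile normalization. *GAP1* (YKR039W, chromosome XI, 515063 to 516871), the general amino acid permease, was at -1.69 and 3.07 at 6 h and at -2.00 and 4.11 at 8 h. The glutamate and aspartate permease *DIP5* was at -3.37 and 1.23 at 6 h and at -3.46 and 1.23 at 8 h. The other ammonium permeases had smaller gaps, 1.85 and 1.86 for *MEP1*, 1.17 and 1.04 for *MEP3* and 0.50 and 0.80 for *ATO3*, an ammonium exporter.

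The promoters of *MEP2* (chrXIV:357153-357452, plus strand) and *GAP1* (chrXI:514763-515062, plus strand) are shown because these had the largest differences on the high side at 8 h among named genes. Capitals mark GATAAG or its complement CTTATC, the core bound by the GATA factors that regulate nitrogen genes. It begins at 233 bases before the start codon in *MEP2* and at 293 and 242 bases in *GAP1*. The core stood in 20.5% of 444 windows of genes higher at both times, in 12.3% of 488 windows of genes lower at both times and in 14.6% of all 5880. In the nitrogen use genes it stood in 40% of 20 windows, and the core overlapped neither the Ndt80p core nor the Ume6p core in any window.
MEP2: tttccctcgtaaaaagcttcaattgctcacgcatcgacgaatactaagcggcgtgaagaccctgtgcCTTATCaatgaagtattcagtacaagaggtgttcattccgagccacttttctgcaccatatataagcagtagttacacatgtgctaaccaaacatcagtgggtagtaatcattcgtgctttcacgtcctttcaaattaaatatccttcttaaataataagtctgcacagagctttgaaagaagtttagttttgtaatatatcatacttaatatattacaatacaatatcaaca
GAP1: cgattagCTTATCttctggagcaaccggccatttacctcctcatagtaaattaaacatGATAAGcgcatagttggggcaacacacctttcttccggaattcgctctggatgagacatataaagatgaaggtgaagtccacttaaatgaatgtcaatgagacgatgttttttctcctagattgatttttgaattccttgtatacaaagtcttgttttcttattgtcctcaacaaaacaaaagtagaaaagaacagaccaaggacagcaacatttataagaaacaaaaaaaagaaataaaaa

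Permeases stood on both sides. Of 22 amino acid and peptide permease genes, 10 were higher and 2 lower at 6 h, and 7 were higher and 6 lower at 8 h, with medians of 0.87 and 0.25. *AGP1*, a broad permease gene, was at 0.46 in wild type and 3.27 in the mutant at 6 h and at -0.14 and 3.07 at 8 h. *TAT1*, which carries branched and aromatic amino acids, went the other way, at -1.09 and -2.70 at 6 h and at 0.97 and -3.23 at 8 h (differences -1.62 and -4.20). *GNP1*, the glutamine permease gene, differed by -0.95 and -3.33. At 8 h both genes were higher in wild type than at 6 h, while the mutant had moved down.

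Genes for the use of poor nitrogen sources were higher in part of the list. Of 20 genes, 10 were higher and none lower at 6 h, and 10 were higher and 2 lower at 8 h (medians 1.08 and 0.85, or 1.11 and 0.85 after quantile normalization). The urea permease gene *DUR3* was at -0.48 and 2.87 at 6 h and at -0.52 and 3.39 at 8 h. *DAL3*, of allantoin breakdown, was at -0.77 and 1.93 at 6 h and at -1.13 and 2.75 at 8 h. *GDH3*, a glutamate dehydrogenase gene, differed by 2.75 and 3.32, and *DUR12*, the urea amidolyase gene, by 1.91 and 3.40. The allantoin permease gene *DAL4* (-0.55 and -2.33) and *GDH2*, which breaks down glutamate (-0.94 and -1.75), were lower at 8 h. Proline and arginine catabolism stood within 2-fold at both times: *PUT1* was at 0.11 and 0.22, *PUT2* at -0.59 and -0.15, *CAR1* at -0.02 and 0.53 and *CAR2* at -0.69 and -0.45.

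Transporters of other nutrients were among the highest genes as well. *ZRT1*, the high-affinity zinc transporter gene, was at -0.29 in wild type and 4.57 in the mutant at 6 h and at -0.29 and 3.44 at 8 h. The phosphate transporter gene *PHO84* was at -5.33 and -0.76 at 6 h and at -5.96 and -1.69 at 8 h. *PHO89*, a sodium and phosphate cotransporter gene, differed by 3.60 and 3.63, and *SPL2*, a regulator of phosphate transport, by 3.44 and 4.02.

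The regulators of the nitrogen genes showed smaller differences in the same direction. Of 9, 3 were higher at 6 h and 5 at 8 h, and none was lower. *GAT1*, a GATA activator, was at 0.61 and 1.93 at 6 h and at 0.77 and 2.65 at 8 h. The GATA repressors *GZF3* (1.44 and 1.97) and *DAL80* (1.84 and 1.02) were higher too, as was *DAL82* at 8 h (0.84 and 1.40). The activator *GLN3* (0.59 and 0.79) and its cytoplasmic anchor *URE2* (0.06 and -0.70) stood within 2-fold.

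Amino acid synthesis genes were higher as a group: 34 of 57 at 6 h and 29 at 8 h, with none and 3 lower and medians of 1.27 and 1.05 (1.02 and 0.77 after quantile normalization, with 30 and 14 higher). *ARG1*, of arginine synthesis, was at 2.12 in wild type and 4.99 in the mutant at 6 h and at 0.90 and 4.57 at 8 h. *ASN1*, an asparagine synthetase gene, was at -1.30 and 1.70 at 6 h and at -1.88 and 1.17 at 8 h. *ILV2*, of branched-chain synthesis, differed by 2.61 and 2.48. *HIS3*, an auxotrophic marker in other strains of the study, was at 0.20 and 1.62 at 6 h and at -0.16 and 1.22 at 8 h, and *LYS2* differed by 1.06 and -0.39.

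Sulfur assimilation was higher in 7 of 18 genes at both times, with 1 lower at 8 h (medians 0.66 and 0.78, or 1.29 and 1.42 after quantile normalization, with 13 higher at each time). *SUL1*, a sulfate permease gene, was at 2.17 and 5.98 at 6 h and at 2.27 and 5.39 at 8 h, and *STR3*, a cystathionine lyase gene, at 0.09 and 2.83 and at -0.23 and 2.34. *CYS3* (1.81 and 1.86) and *SAM1* (1.78 and 1.68) followed. *MET17*, the homocysteine synthase gene also called *MET15*, was at 1.90 and 5.33 at 6 h and at 1.08 and 5.29 at 8 h. The *met15* allele is listed in Pzev-*IME1* strains of the study and not in those with both promoters.

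Cytosolic ribosomal protein genes were higher almost throughout. Of 138, 133 were higher at 6 h and 102 at 8 h, none was lower, and the medians were 2.04 and 1.39. The median level was -3.06 in wild type and -1.04 in the mutant at 6 h and -3.25 and -1.85 at 8 h, so both genotypes were below the reference and wild type more so. After quantile normalization the medians were 0.79 and 0.35, and 26 genes at 6 h and 1 at 8 h were higher. *RPL7B* was at -4.84 and -1.65 at 6 h and at -4.81 and -2.72 at 8 h, *RPL37A* differed by 2.87 and 2.42, *RPL30* by 2.97 and 2.22 and *RPS12* by 2.79 and 2.17. Many of these genes are near-identical pairs that share reads, so values of single members such as *RPL7B* and *RPL37A* are uncertain. Ribosome biogenesis genes showed the same direction with smaller sizes, 28 of 94 higher at each time and medians of 0.63 and 0.73. After quantile normalization 2 were higher at 6 h and none at 8 h, with 2 lower at 8 h (medians 0.37 and 0.29). In the columns as deposited, *CBF5* (1.74 and 1.36) and *MAK16* (1.33 and 1.60) were on the high side and *RPA43*, a polymerase I subunit gene, was lower (-1.22 and -3.18). Of 38 translation factor genes 8 were higher and 1 lower at 6 h and 6 and 5 at 8 h. Over all genes the shares higher and lower were 10.7% and 11.1% at 6 h and 12.8% and 17.6% at 8 h. After quantile normalization the numbers of translation factor genes were 3 and 1 at 6 h and 0 and 2 at 8 h. The elongation factor gene *YEF3* differed by 1.83 and 1.64 and *ANB1* by -2.40 and -1.56.

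Heat shock protein genes were lower in part, 11 of 21 at 6 h and 6 at 8 h, with 2 and 1 higher (medians -1.18 and -0.80, or -0.58 and -0.08 after quantile normalization). The stress-induced Hsp70 genes *SSA3* (0.82 in wild type and -3.25 in the mutant at 6 h, and 0.97 and -2.06 at 8 h) and *SSA4* (2.40 and -0.66, and 2.81 and -0.20) had the largest gaps. *SSB1*, the ribosome-bound Hsp70 gene, was on the other side with the ribosomal proteins (2.55 and 2.02), and *HSP30* was at -1.81 and -1.98. Proteasome genes had small differences that were negative in 33 of 34 genes at each time, with medians of -0.70 and -0.47 and 1 lower at each time.

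DNA replication and histone genes stood differently against wild type at 6 h and at 8 h. Of 33 replication genes, 2 were lower and 1 higher at 6 h, and 1 was lower and 12 were higher at 8 h (medians -0.04 and 0.43, or 0.22 and 0.70 after quantile normalization). The ligase gene *CDC9* was at 0.14 in wild type and 1.27 in the mutant at 6 h and at -0.46 and 1.68 at 8 h, and *ORC1*, of the origin recognition complex, was lower (-1.82 and -2.15). Of 10 histone genes, 2 were lower at each time and 3 were higher at 8 h, with medians of -0.78 and 0.69 (-0.32 and 0.63 after quantile normalization). *HTA2*, for histone H2A, was at 1.26 and 0.81 at 6 h and at -0.41 and 1.47 at 8 h, and its neighbour *HTB2*, for H2B, at 2.43 and 1.55 and at 0.87 and 2.39. The linker histone gene *HHO1* (-1.48 and -1.88) and the variant *HTZ1* (-1.38 and -1.02) stayed lower at both times.

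Markers of other cell states were measured beside these groups. Of 22 haploid and mating-type genes, which diploids repress, 8 were lower and 1 higher at 6 h, while at 8 h the numbers were 7 and 2 (medians -0.68 and -0.73, or -0.09 and -0.03 after quantile normalization, with 2 lower and 1 higher at each time). *STE18*, for the pheromone G protein γ subunit, was at 3.55 in wild type and 0.60 in the mutant at 6 h and at 5.63 and 0.47 at 8 h, and *STE5*, a scaffold, differed by -1.51 and -2.59. *NEJ1*, an end-joining gene, differed by -1.46 and -2.78, and *STE4*, for the β subunit, by -1.33 and -2.62. Among 9 mating genes linked to Kar4p in haploids, *FUS2*, of cell fusion (-2.10 and -2.94), *KAR3*, a kinesin gene (-1.53 and -2.28), and its partner *CIK1* (-2.03 and -1.44) were lower at both times. The median of the 9 was -0.56 and -1.08, and -0.19 and 0.06 after quantile normalization. *PRM2*, of nuclear fusion, was at -0.89 and -2.29. By 8 h, 5 of these 9 genes stood at least 2-fold below wild type. *AGA1*, which is also in the haploid list, went the other way (0.84 and 1.72), and *PRM1* was within 2-fold (0.21 and 0.32). On quantile normalized columns *AGA1* was at 0.95 and 1.34, and none of the 9 reached 2-fold on the low side. Of mitotic genes, *CLB2* was at 1.00 and -1.41 at 6 h and at 1.98 and -1.06 at 8 h. *EGT2*, of daughter cell separation, was at -2.13 and -3.10 at 6 h and at -0.32 and -3.14 at 8 h. Its difference was the most negative among the 12 genes of that list each time (-0.98 and -2.82). The sign was negative for 9 of the 12 at the earlier time but for only 4 at the later. Medians of the list were -0.26 and 0.25, or -0.56 and -0.22 after quantile normalization. The G1 cyclin genes *CLN2* (-0.21 and 0.06) and *CLN3* (1.63 and 1.31) stood level or higher. These markers are RNA of the whole culture, in which fewer cells of a kind and less RNA per cell cannot be told apart, and their part in the other differences was not tested.

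Sugar genes ranged from the lowest to the highest values. The hexose transporter genes *HXT14* (7.79 in wild type and 1.88 in the mutant at 6 h, and 11.63 and 2.29 at 8 h) and *HXT10* (6.44 and 1.71, and 11.08 and 2.14) were lower, and *HXT2* (-2.95 and 0.53, and -2.70 and -0.49) was higher. The other 13 of 16 transporter genes with a value lay between -1.19 and 2.03 at 6 h and between -0.98 and 0.82 at 8 h, and close relatives such as *HXT6* and *HXT7* share reads. *EMI2*, a hexokinase relative needed for sporulation, differed by -2.95 and -5.84 and *HXK2*, the main hexokinase gene of growth on glucose, by 3.41 and 2.13. In 17 glycogen and trehalose genes, *SGA1* was lower and *TSL1*, of trehalose synthesis, higher (2.52 and 2.50). In 17 genes of acetate use, *PCK1*, the first step of gluconeogenesis, differed by -0.74 and -2.55 and *CIT2*, of the glyoxylate cycle, by 1.44 and 1.84.

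The remaining lists had medians within 2-fold of wild type at both times. They were the G1 and mitotic cyclins (8 genes, -0.30 and 0.26), fatty acid oxidation (15 genes, -0.38 and 0.16), the TCA cycle and respiration (44 genes, 0.57 and 0.27), mitochondrial ribosomal proteins (70 genes, -0.06 and -0.25), core autophagy (37 genes, -0.19 and -0.21), oxidative stress (15 genes, 0.36 and 0.39), iron uptake (21 genes, -0.01 and 0.13) and daughter cell separation (12 genes, -0.26 and 0.25). After quantile normalization the sign of the median turned at 8 h for the TCA cycle and respiration (-0.03), autophagy (0.14), iron uptake (-0.45) and daughter cell separation (-0.22). Single members stood apart from their list. The siderophore transporter gene *SIT1* was at -4.86 in wild type and -1.16 in the mutant at 6 h and at -5.10 and -1.34 at 8 h. *FET3*, the multicopper oxidase gene, differed by 3.55 and 3.02. The iron list was split, with 7 higher and 3 lower at 6 h and 5 higher and 6 lower at 8 h. *FIT1* (-2.16 and -2.42) and *FRE1* (-1.61 and -1.84) were lower at both times. *GRE2*, a reductase gene, was at -5.62 and -2.54 at 6 h and at -6.62 and -1.78 at 8 h. *ATG32*, the mitophagy receptor gene, was lower (-1.51 and -2.68), as was *MRPL37* (-1.75 and -3.91).

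Between 6 h and 8 h the difference moved down by at least 2-fold in 674 genes (10.4%) and up in 210 (3.23%), or in 89 and 78 genes after quantile normalization. The largest move down among named genes was that of *HXT10* (-4.73 to -8.94), followed by the cyanamide hydratase gene *DDI2* (1.83 to -2.12), *HXT14* (-5.92 to -9.34) and the seripauperin genes *PAU10* (-0.50 to -3.89) and *PAU4* (-1.58 to -4.69), which belong to families of near-identical copies. The largest moves up were those of *FEX2*, a fluoride exporter gene (-2.42 to 0.55), *HTB2*, *HTA2*, *HHF1*, for histone H4 (-0.99 to 1.06), and *HLR1* (-0.34 to 1.59). From 6 h to 8 h the level of *HXT10* went up by 4.64 in wild type and by 0.43 in the mutant.

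With Pzev-*IME1* alone, *kar4*Δ/Δ and wild type of that background differed in fewer genes at the same times. Of all 6496 genes, 217 were lower and 97 higher at 6 h, and 251 and 72 at 8 h. The median difference of the 47 Ndt80p targets was -0.17 at 6 h and -0.19 at 8 h there. Of these 47, 3 were lower and 2 higher at 6 h, and 5 were lower and none higher at 8 h. *NDT80* differed by -0.38 and -0.23, *MEP2* by -0.57 and -0.34 and *GAP1* by -0.01 and 0.16. The ribosomal protein genes had medians of 0.46 and 0.51. Only differences are given for this background and not the levels behind them. A small difference there can therefore stand for genes that were on in both genotypes or in neither. Whether its wild type had induced the middle genes by these times was not tested. The paper reports reduced *NDT80* transcript in *kar4*Δ/Δ of this background at a later time. With both genes overexpressed, it describes late gene expression in *kar4*Δ/Δ as largely restored. It adds that a moderate delay or reduction of *NDT80* and its regulon was left, and does not tie this to 6 h and 8 h. At 12 h the median level of the 47 targets with both promoters was 7.98 in wild type and 1.94 in the mutant. The test of a difference between the backgrounds could not be made, as neither has replicate values.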

How the data were processed

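PolyA RNA of diploid S288c yeast in sporulation medium was sequenced. The authors mapped reads to sacCer3 with BWA-MEM, used htseq-count for counting by gene, and obtained fold changes from DESeq2. Versions, the strand setting and any shrinkage are not given in the sources used here. The values deposited are log2 fold changes, 1 for each of 36 conditions, relative to wild type at 0 h carrying endogenous promoters. Both replicates were combined in them, so the depth per sample and its precision are unknown. The 16 columns without a name were not used, and the number of per-sample columns without a sample was 0.

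Of 6660 genes, 164 lacked a value in at least 1 column and were left out. Conditions were taken by label, differences were formed by subtraction and counted at 2-fold, and no test was made. The alternatives were quantile normalization, centring of the columns, a 4-fold size, each genotype's own 0 h, the median absolute difference for the nearest time, and named genes only. The members, the 42 gene lists and the comparisons were chosen with earlier results of these data known. Genes were named by rule: the regulators, the 10 lowest and 10 highest at each time past 2-fold on both scales, the 4 largest members of a list, and the 5 whose difference moved most each way or changed side. Others are named for their role in a list and were chosen after their values were seen. 1 gene that the rule named is not reported here. Counting was tested on simulated data. Coordinates and promoters are from R64, in which 5883 identifiers were found. Since the strand setting is unknown, reads of overlapping or antisense genes may be mixed. The software was Python 3.11.15 with numpy 2.4.6, pandas 2.3.3, and for plots matplotlib 3.10.9.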

Additional observations from a re-analysis of the deposited data

Results flagged for a closer look

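Gene *DDI2*, for a cyanamide hydratase, is listed because its difference took opposite signs at the 2 times, 1.83 at 6 h and -2.12 at 8 h. It shares its sequence with *DDI3*, so its value is uncertain. The median difference of the 10 histone genes was likewise -0.78 at 6 h and 0.69 at 8 h. The change of sign was not tested in either case, since no replicate values are given.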

How the results depend on the processing

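Leaving out a replicate was not run, because each value already combines both replicates. No paired analysis was possible because the table has no values per replicate. Quantile normalization gave 316 lower and 302 higher genes at 6 h, 422 and 304 at 8 h, 241 and 167 at both times, and 89 and 78 genes whose difference moved down and up from 6 h to 8 h. At 4-fold the counts were 222 and 178 at 6 h, 446 and 115 at 8 h, and 191 and 70 at both times. The counts under centring, each genotype's own 0 h and named genes only were within 1.5 times those of the report, and the nearest wild type time was 2 h in each setting.

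Among medians and genes at least 2-fold apart as deposited at the time named, signs turned as follows. The sign of the median turned after quantile normalization for strand exchange (0.68), axis (0.56) and crossover genes (0.17) at 6 h and for the mating genes linked to Kar4p at 8 h (0.063), and relative to the own 0 h column for strand exchange (1.81) and axis genes (2.10) at 6 h. Medians within 2-fold turned as well after quantile normalization, among them those of strand exchange (1.42), axis (1.44), crossover (0.64) and double-strand break genes (0.39) at 8 h and of the methyltransferase list at both times (0.19 and 0.29). After quantile normalization the sign turned at both times for *IME2* (0.75 and 1.46), *PHO92* (0.48 and 1.31), *SLZ1* (0.57 and 0.90), *MEI4* (0.074 and 1.30), *MEI5* (1.01 and 2.24), *HED1* (0.59 and 1.36), *ECM11* (0.11 and 1.50), *MSH4* (0.12 and 0.82) and *AMA1* (0.29 and 0.33), at 6 h for *SAE3* (1.05), *ZIP1* (0.46), *RED1* (0.49), *DMC1* (0.76) and *MEK1* (1.00), and at 8 h for *SPO11* (0.39), *REC102* (0.51), *REC104* (0.72) and *GMC2* (0.78). Relative to the own 0 h column it turned at both times for *IME2* (2.97 and 2.90), *PHO92* (2.00 and 2.17), *SLZ1* (0.85 and 0.54), *MEI4* (0.55 and 1.67), *MEI5* (3.34 and 4.07), *HED1* (1.84 and 2.62), *ECM11* (2.08 and 3.03), *MSH4* (0.047 and 1.06) and *AMA1* (1.38 and 0.24), at 6 h for *SAE3* (3.63), *ZIP1* (1.04), *RED1* (1.54), *DMC1* (2.77) and *MEK1* (2.85), and at 8 h for *REC104* (0.44), *GMC2* (0.70), *FMP45* (-0.14) and *SHS1* (0.18). Genes within 2-fold at a time also turned and are not listed. The cause was not tested. The depth behind each value is unknown, and the size of a fold change at a low level is therefore uncertain.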

Other observations

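Several groups were noticed in the values and were then counted over lists drawn up after the values had been seen, so that nothing rests on their choice. Purine synthesis genes were higher in 12 of 16 at 6 h and 8 of 16 at 8 h, with medians of 1.53 and 0.97 (0.89 and 0.31 after quantile normalization, with 7 and 2 higher) and none lower. *ADE17*, of the last steps to IMP, was at -3.83 in wild type and 0.01 in the mutant at 6 h. The folate enzyme gene *SHM2* differed by 3.44 and 2.54. Of 16 glycolysis genes, 14 were higher at 6 h and 11 at 8 h, with medians of 1.60 and 1.37 (0.61 and 0.38 after quantile normalization, with 4 and 2 higher). *TDH1*, a glyceraldehyde phosphate dehydrogenase gene, was at -5.76 and -2.11 at 6 h and at -6.05 and -3.23 at 8 h.

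Members of the seripauperin family, which are near-identical and share reads, were lower in 9 of 17 at 6 h and 10 at 8 h (medians -1.47 and -2.28, or -0.85 at both times after quantile normalization). Of 19 phosphate genes 6 were higher and 1 lower at 6 h, and 5 and 4 at 8 h. Of 9 zinc genes 2 were higher and none lower at 6 h, and 3 and 2 at 8 h.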
